A study of Arabidopsis thaliana with 8 samples.

Results

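Accessible chromatin was described at the 9 Arabidopsis genes of 3 histone families that set how tightly DNA is packed: the linker histones H1.1 (AT1G06760), H1.2 (AT2G30620) and H1.3 (AT2G18050), the H2A.Z genes HTA8 (AT2G38810), HTA9 (AT1G52740) and HTA11 (AT3G54560), and the H2A.W genes HTA6 (AT5G59870), HTA7 (AT5G27670) and HTA12 (AT5G02560). The genes were chosen by identifier, 9 of 27444 protein-coding genes on the 5 chromosomes, and each was examined over the gene and 1000 bp on either side, called its window here. Presence means that a listed peak overlapped the window by at least 1 bp, and covered bases are the window bases that lie under listed peaks.

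Linker histone H1 binds where DNA enters and leaves the nucleosome and compacts the fibre, and in Arabidopsis it limits the access of DNA methyltransferases to heterochromatin. H2A.Z replaces H2A in nucleosomes near transcription starts and over the bodies of responsive genes, where it is anticorrelated with DNA methylation, and the SWR1 complex places it. H2A.W marks the heterochromatin of transposable elements, and the remodeller DDM1 takes part in its deposition.

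The libraries were made by ATAC-seq, in which the transposase Tn5 cuts and tags open DNA, from nuclei of seedling shoots grown for 7 to 9 days at 25 °C with 16 h of light. All plants were Ler x Cvi recombinant inbred lines, that is, inbred descendants of a cross between the accessions Landsberg erecta and Cape Verde Islands, and the study compared lines that differ in how often CG methylation is gained or lost spontaneously. RIL149 and RIL50 each gave 2 libraries at generation 3 and 2 at generation 10, so that there were 8 libraries, 4 per line and 4 per generation. Each group holds 1 library of lineage 1 and 1 of lineage 2, and below the value of lineage 1 stands first. The generation 3 libraries are all of sublineage 1, and those of generation 10 are of sublineage 2 except RIL149 lineage 2, so the later library of a lineage may come from another branch than the earlier one. The sample titles end in a further number, 3 at generation 3 and 4 at generation 10, which the labels do not explain. It cannot be told apart from generation. No wild type or parental accession was analysed here, each line is 1 genotype, and the labels do not say whether a library is 1 plant or a pool, so a p-value here reflects only how these libraries vary, which may be technical.

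The libraries differed in how many peaks they listed. RIL149 had 17132 and 13186 nuclear peaks at generation 3 and 19542 and 21540 at generation 10. RIL50 had 19193 and 18447 at generation 3 and 18896 and 16952 at generation 10. Read totals are not part of the lists. Background pileup, solved from fold and p of each peak and used as a stand-in for depth, ranged from 8.71 to 25.3, and the lowest listed fold from 1.17 to 1.36. A gene without a listed peak is therefore one where none was detectable in that library, not one shown to be closed. The 3 shoot markers LHCB1.3, LHCA1 and RBCS1A had a peak in all 8 libraries. Of the 5 root markers, CASP1 had one in 8 libraries, WOX5 in 5, and PLT1, PLT2 and RHD6 in none.

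Open chromatin was listed at 7 of the 9 genes, and 4 of them carried it in every library: H1.1, H1.3, HTA8 and HTA7. That is 44.4% of the 9 genes, beside 45.2% of all protein-coding genes with a peak in all 8. HTA9 and HTA12 had a peak in 6 libraries each and H1.2 in 2. HTA11 and HTA6 had none, as did 26.6% of all protein-coding genes. Each of the 3 families thus held at least 1 gene with a window peak in every library and at least 1 without. For H2A.Z the constant gene was HTA8, whose main peak lay closer to a neighbouring gene. With the gene alone in place of the window, HTA8 had a peak in 1 library. The peaks fell on 9 sites, since H1.3 and HTA7 were open near both gene ends. The order of strength within a list was the same at the top in all 8 libraries: HTA8 had the highest fold of the 9 sites and the upper end of HTA7 the next. Below them, the folds of H1.1, both ends of H1.3, HTA9 and HTA12 overlapped.

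**Figure D1:**
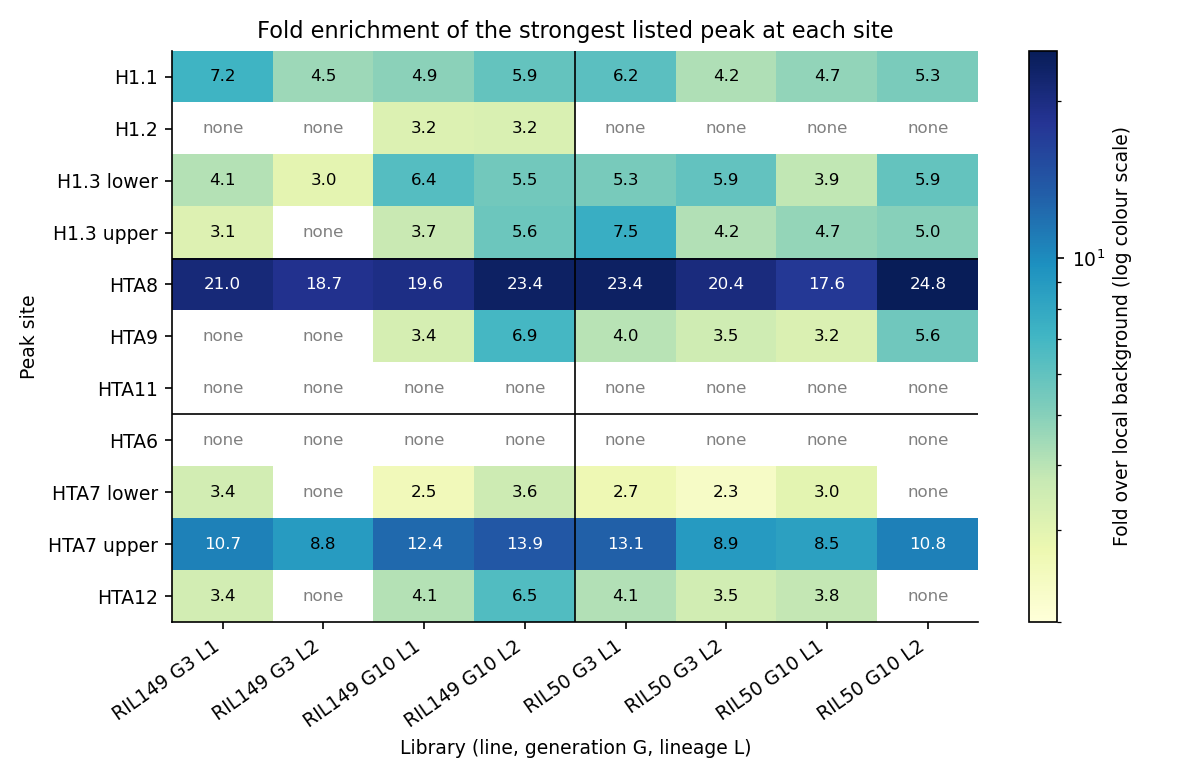
Fold enrichment of the strongest listed peak (colour, log scale, with the value printed) at each site of the 9 genes (rows) in each of the 8 libraries (columns). HTA8 lies between 17.6 and 24.8 in every library and HTA7 upper between 8.47 and 13.9, H1.2 has a value in 2 libraries, and HTA11 and HTA6 have none.

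The fold is the authors' value, the pileup at the summit over the local background of the same library. It was used to describe peaks within a list and was not tested between lists. Gene ends are called lower and upper by their coordinate, because the gene table used here has no strand, so which end is the transcription start is not stated.

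H1.1, one of the pair of main linker histone genes, had a single narrow peak over its upper end in every library. The peaks spanned chr1:2077669-2077888 together, with 154 bases shared by all 8, and the summits lay 10 to 45 bp beyond the gene end and inside no neighbouring gene. The covered bases were 189 and 181 in RIL149 at generation 3 and 175 and 197 at generation 10. The RIL50 libraries had 214 and 172 at generation 3 and 175 and 154 at generation 10. No line or generation stood apart. Fold was 7.19, 4.5, 4.9 and 5.92 in the 4 RIL149 libraries and 6.18, 4.19, 4.74 and 5.26 in the 4 RIL50 libraries, with means of 5.63 ± 1.2 and 5.09 ± 0.846 (SD, n = 4 each). The peak was narrow in every list, where 11.8% to 27.2% of peaks were narrower, and of middling fold, with 51.7% to 77.1% of peaks lower.

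H1.2, the other main linker histone gene, had a listed peak in both RIL149 libraries of generation 10 and in none of the other 6. The peaks lay inside the gene, at chr2:13045097-13045248 in lineage 1 and chr2:13045119-13045269 in lineage 2, with summits 250 and 279 bp from the lower end. They were 152 and 151 bases wide, with folds of 3.16 and 3.24 and summit pileups of 46 and 69. Both were weak and narrow within their lists, where 23.7% and 26.4% of peaks had a lower fold and 9.67% and 10.7% were narrower. Peaks with a fold under 3.16 made up 17.4% to 33.1% of the 6 lists in which H1.2 is missing. Fold and background differ between lists, and whether this peak could have been detected in those lists was not tested. The nearest peak outside the window was 3395 and 2973 bp away in these 2 libraries, 2888 bp in RIL50 at generation 10 lineage 2, and 7715 to 7813 bp in the other 5.

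H1.3, the linker histone gene known to be induced by drought and shade, was open at both ends. The peak at the lower end, in chr2:7845842-7846086, was listed in all 8 libraries, with its summit 6 to 78 bp inside the gene. Its fold was 4.07 and 2.95 in RIL149 at generation 3 and 6.38 and 5.5 at generation 10. RIL50 had 5.35 and 5.94 at generation 3 and 3.86 and 5.87 at generation 10. The peak at the upper end, in chr2:7846778-7847169, had its summit 25 to 49 bp beyond the gene and was missing in 1 library, RIL149 at generation 3 lineage 2. Its fold was 3.13 in the other RIL149 library of generation 3 and 3.7 and 5.64 at generation 10. The RIL50 libraries had 7.52 and 4.15 at generation 3 and 4.7 and 4.96 at generation 10. The library without the upper peak also had the weakest and narrowest lower peak, and it holds the fewest peaks of the 8. In its list 25.2% of peaks had a fold under 3.13, the lowest at the upper end elsewhere. The nearest neighbouring gene on the upper side, VND1, a regulator of xylem vessel formation, ends 887 to 911 bp from these summits.

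The H2A.Z gene HTA8 had the strongest peak of the 9 genes, and it lay closer to the neighbouring gene than to HTA8. Its fold was 21.0 and 18.7 in RIL149 at generation 3 and 19.6 and 23.4 at generation 10. RIL50 had 23.4 and 20.4 at generation 3 and 17.6 and 24.8 at generation 10. Between 99.1% and 99.7% of the peaks in each list were lower, and the summit pileups ran from 253 to 809. The line means of 20.7 ± 2.05 and 21.6 ± 3.21 (SD, n = 4 each) differed by less than the spread within a line. The summits, all within a stretch of 57 bp at chr2:16221603-16221660, lay 675 to 732 bp beyond the upper end of HTA8 and 155 to 212 bp from the near end of AT2G38820.

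Close to the HTA8 end itself chromatin was open more weakly and in fewer lists. A separate peak with its summit 67 bp beyond the end was listed in RIL149 at generation 3 lineage 1, with a fold of 2.12, and 1 at 90 bp in RIL50 at generation 10 lineage 1, with a fold of 2.09. In RIL50 at generation 3 lineage 2 the main peak was 935 bases wide and reached back over the gene end. In the other 5 libraries the nearest peak edge was 279 to 519 bp from the gene. The covered bases of the HTA8 window, 684 and 507, 635 and 529 in RIL149 and 522 and 935, 683 and 407 in RIL50 (generation 3, then generation 10), overlapped between lines and between generations.

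The H2A.Z gene HTA9 had a peak at its lower end in all 4 RIL50 libraries and in RIL149 at generation 10 alone. The peaks lay within chr1:19645122-19645365, and their summits fell between 3 bp outside and 43 bp inside the gene. The summits are also 22 to 68 bp from the near end of the neighbouring gene AT1G52730, which lies 25 bp from HTA9, and the peaks span the ends of both genes. Covered bases were 0 and 0 in RIL149 at generation 3 and 158 and 224 at generation 10. The RIL50 libraries had 175 and 192 at generation 3 and 226 and 217 at generation 10. The RIL149 libraries of generation 10 had folds of 3.36 and 6.89, and RIL50 had 4.02 and 3.54 at generation 3 and 3.21 and 5.57 at generation 10. The 2 libraries without the peak were the RIL149 libraries of generation 3. In their lists 26.9% and 27.2% of peaks had a fold under 3.21, the lowest at this site elsewhere.

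HTA11, the third H2A.Z gene, had no peak within 6268 bp in any library. The nearest peak was 6268 to 6355 bp away in 7 libraries and 13014 bp away in RIL149 at generation 3 lineage 2. No peak was near enough to enter its window under any window size tried.

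HTA6, an H2A.W gene, had no listed peak in its window, but its nearest peak was just outside it. In all 8 libraries a peak lay 1473 to 1534 bp from the lower end, with folds of 4.95 to 9.57. Under a window of 2000 bp HTA6 therefore counts as open in 8 libraries.

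HTA7, an H2A.W gene whose protein carries a tail motif that is phosphorylated after DNA damage, was open at both ends. The upper peak, in chr5:9793340-9793873, was listed in all 8 libraries with 304 bases shared by all of them, and its summit lay 15 to 40 bp beyond the gene and 145 to 170 bp from RECQSIM, a RecQ-type helicase gene. Its fold was 10.7 and 8.79 in RIL149 at generation 3 and 12.4 and 13.9 at generation 10. RIL50 had 13.1 and 8.95 at generation 3 and 8.47 and 10.8 at generation 10. The line means were 11.4 ± 2.2 and 10.3 ± 2.1 (SD, n = 4 each) and overlapped, and 86.1% to 94.2% of each list was lower. The lower peak, in chr5:9792354-9792602, was weak. It covered the lower end of HTA7, which lies 131 bp from the protease gene DEG14, and its summit was outside HTA7 in 5 of 6 libraries and 14 bp inside in RIL149 at generation 10 lineage 2. The fold was 3.44 in RIL149 at generation 3 lineage 1 and 2.55 and 3.56 at generation 10. The RIL50 libraries had 2.68 and 2.32 at generation 3 and 2.98 at generation 10 lineage 1. The lower peak was missing in RIL149 at generation 3 lineage 2 and RIL50 at generation 10 lineage 2, where only 4.91% and 2.4% of listed peaks had a fold under 2.32. Peaks as weak as the weakest at this site were thus rarely listed in those 2 libraries.

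HTA12, the remaining H2A.W gene, had a narrow peak beyond its upper end in 6 libraries, 3 of each line. The peaks lay in chr5:577207-577429, with summits 62 to 133 bp beyond the end. Covered bases were 170 and 0 in RIL149 at generation 3 and 130 and 183 at generation 10. RIL50 had 182 and 193 at generation 3 and 160 and 0 at generation 10. The 2 lists without it are the shortest of the 8. In them 32.9% and 21.9% of peaks had a fold under 3.44, the lowest at this site elsewhere. The part of list length was not tested. Fold where listed was 3.44, 4.1 and 6.48 in RIL149 and 4.12, 3.47 and 3.81 in RIL50. AT5G02570, which lies inside the HTA12 span in the gene table, had the same covered bases, so the peak cannot be assigned to either gene. A further peak 1905 to 1962 bp beyond the upper end, with folds of 5.91 to 11.2, was listed in all 8 libraries and lies outside the window.

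**Figure D2:**
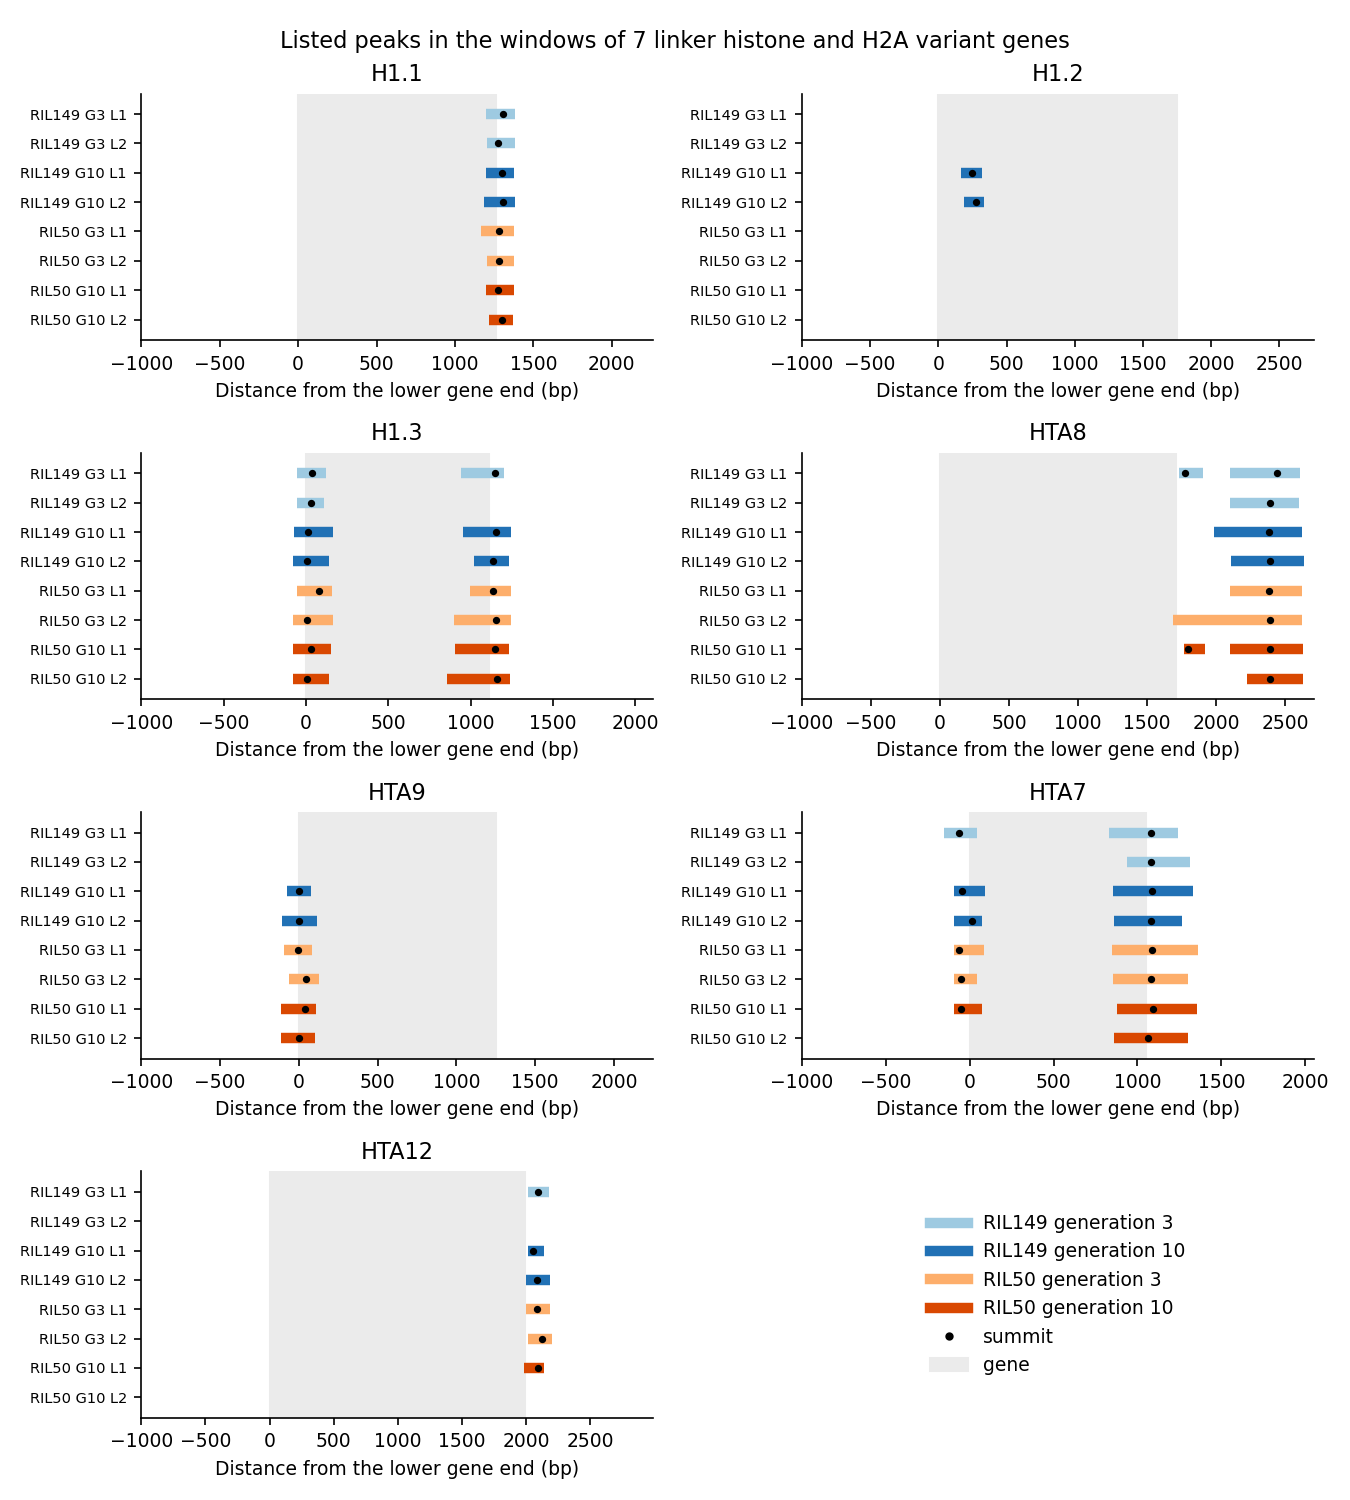
Listed peaks (bars) and their summits (points) in each of the 8 libraries (rows), against the distance in bp from the lower end of each gene, with the gene body in grey; colours mark line and generation. The peaks sit near gene ends except at H1.2, where they lie inside the gene, and at HTA8, where the main summit is 675 to 732 bp beyond the upper end.

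Between the lines, none of the 9 genes was open in all 4 libraries of one and none of the other. Among the 20138 genes with a peak in at least 1 library, 0.382% had that pattern in favour of RIL149 and 0.626% in favour of RIL50. In the exact permutation test of presence (two-sided, 70 arrangements of 4 and 4, smallest possible p = 0.0286), H1.2 and HTA9 had p = 0.429, H1.2 in 2 RIL149 against 0 RIL50 libraries and HTA9 in 2 against 4. No gene of the genome passed this exact test after Benjamini-Hochberg adjustment over the 20138 genes (lowest adjusted p = 1.0), while 203 had an unadjusted p under 0.05, none of them among the 9. With this smallest p, an adjusted p under 0.05 would need most of the 20138 genes to reach it together. The adjusted values here and below, for lines and for generations, therefore cannot show that no gene differs.

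With the full lists, covered bases did not separate the lines at any of the 9 genes either, beside 1.18% of all tested genes that were higher in all RIL149 libraries and 3.48% that were higher in all RIL50 libraries. The largest shortfall was at H1.3, where RIL149 covered 394.0 ± 159 bases and RIL50 550.0 ± 65.2 (mean ± SD, 4 libraries each; exact permutation p = 0.0571, adjusted p = 0.811 over 20138 genes). The values at H1.3 were 440 and 165 in RIL149 at generation 3 and 532 and 439 at generation 10. The RIL50 libraries had 457 and 590 at generation 3 and 553 and 600 at generation 10. The lines overlapped by 1 library on each side. Within both generations the RIL50 libraries were above those of RIL149, as at 5.01% of tested genes, and RIL50 was above RIL149 in all 4 pairs of the same generation and lineage number, as at 7.45%. With each list cut to its 13186 strongest peaks, H1.3 covered 179, 165, 236 and 439 bases in RIL149 and 457, 590, 553 and 600 in RIL50, a difference of -295.2 bases in place of -156.0. The lines then did not overlap at H1.3, as at 4.31% of the 17113 genes still tested, with 1.67% the other way. Without RIL149 at generation 10 lineage 1, or without RIL50 at generation 3 lineage 1, the lines did not overlap at H1.3. These are the libraries that made the overlap, with 532 and 457 bases. The share of all tested genes under the same removals is not given here, so how common such a separation is stays unknown. The library with 165 bases is the one with the fewest peaks, whose part in the difference was not tested.

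At HTA9, RIL149 covered 95.5 ± 114 bases and RIL50 202.5 ± 23.3 (mean ± SD, 4 libraries each; exact permutation p = 0.143, adjusted p = 0.928). The lines did not overlap there once RIL149 at generation 10 lineage 2, the library that made the overlap, was left out. For that removal too, the share of all tested genes is not given here. H1.1 was nearly equal, at 185.5 ± 9.57 and 178.8 ± 25.3 bases (p = 0.657 by the exact permutation test), and so was HTA7, at 556.2 ± 126 and 593.8 ± 109 (exact permutation p = 0.629; SD, n = 4 each). HTA8 and HTA12 differed by 48.0 and 13.0 bases on average, less than the spread within either line. The lowest adjusted p over all genes was 0.613, and 939 genes had an unadjusted p under 0.05.

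**Figure D3:**
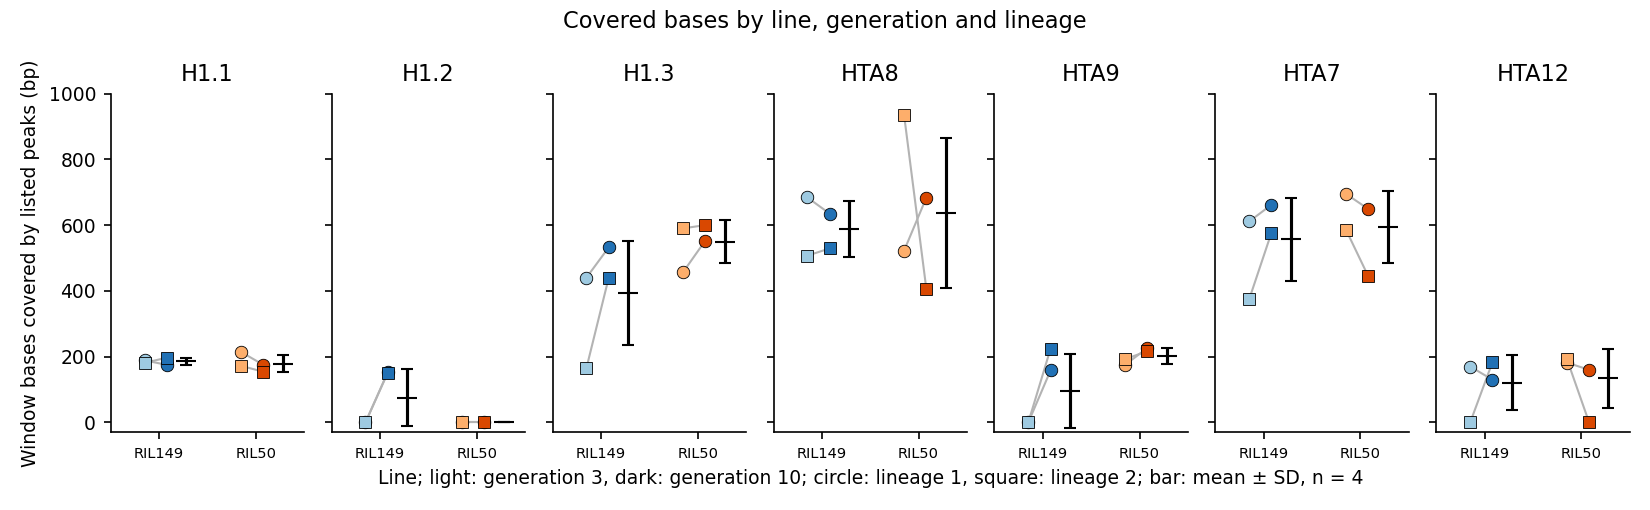
Window bases covered by listed peaks (vertical axis, bp) at the 7 genes with a peak, by line; light symbols are generation 3, dark symbols generation 10, circles lineage 1, squares lineage 2, grey lines join the libraries of a lineage, and bars show mean ± SD (n = 4). RIL50 averaged 550.0 bases at H1.3 against 394.0 in RIL149, and the values of the lines overlap at all 7 genes.

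Between the generations, none of the 9 genes was open in all 4 libraries of one and none of the other, beside 0.313% of tested genes in favour of generation 10 and 0.0% in favour of generation 3. H1.2 was listed in 2 generation 10 and 0 generation 3 libraries and HTA9 in 4 and 2 (exact permutation p = 0.429 each). The lowest adjusted p over all genes was 1.0, with 63 genes at an unadjusted p under 0.05. Covered bases of the generations overlapped at all 9 genes, beside 3.73% of tested genes with generation 10 above and 0.169% with generation 3 above. At HTA9 they were 206.2 ± 32.4 at generation 10 and 91.75 ± 106 at generation 3 (SD, n = 4 each; exact permutation p = 0.0857, adjusted p = 0.8). At H1.3 they were 531.0 ± 67.6 and 413.0 ± 178 (SD, n = 4 each; exact permutation p = 0.314, adjusted p = 0.906). Leaving out RIL149 at generation 10 lineage 1, the library that made the overlap, removed it at HTA9. The share of all tested genes under that removal is not given here. The lowest adjusted p over all genes was 0.732, with 786 genes at an unadjusted p under 0.05.

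By lineage, covered bases were higher at generation 10 in all 4 lineages at H1.3 and HTA9, as at 10.7% of tested genes. The differences, generation 10 minus generation 3, were 92 and 274 bases in RIL149 and 96 and 10 in RIL50 at H1.3, and 158 and 224 in RIL149 and 51 and 25 in RIL50 at HTA9. With 4 pairs the smallest possible p of an exact sign test is 0.125. At HTA7 the differences were 51 and 202 bases in RIL149 and -46 and -141 in RIL50. At HTA12 they were -40 and 183 bases in RIL149 and -22 and -193 in RIL50. The number of listed peaks went the same ways as HTA7: it was higher at generation 10 in both lineages of RIL149 and lower in both of RIL50. The differences at H1.3, HTA9 and HTA12 did not all have these signs, and the part of list length was not tested.

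Within RIL149, H1.2 and HTA9 were open in both generation 10 libraries and neither of generation 3. The same was true of 7.89% of tested genes, and the opposite of 0.00497%, which is 1 gene. Within RIL50 the shares were 0.869% and 1.29%, and none of the 9 genes was among them. That is 1588 genes with the pattern of H1.2 and HTA9 in RIL149, beside 17132 and 13186 listed peaks at generation 3 and 19542 and 21540 at generation 10; the part of the list length was not tested. When each list was cut to its 13186 strongest peaks, H1.2 had a peak in 0 libraries and HTA9 in 4, 1 of RIL149 and 3 of RIL50. An exact permutation test of 2 against 2 libraries cannot go below p = 0.333, so none was run within a line.

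The number of the 9 sites listed per library was 7 and 4 in RIL149 at generation 3 and 9 and 9 at generation 10. RIL50 had 8 and 8 at generation 3 and 8 and 6 at generation 10. Only the 2 RIL149 libraries of generation 10 listed all 9, and these hold the most peaks of the 8. The library with 4 sites holds the fewest. Background pileup did not follow the same order: it was 8.71 in 1 of the 3 libraries with 8 sites and 25.3 in another, and 12.5 in the library with 4. The sites are themselves peaks of these lists, and the parts of list length and depth were not tested.

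**Figure D4:**
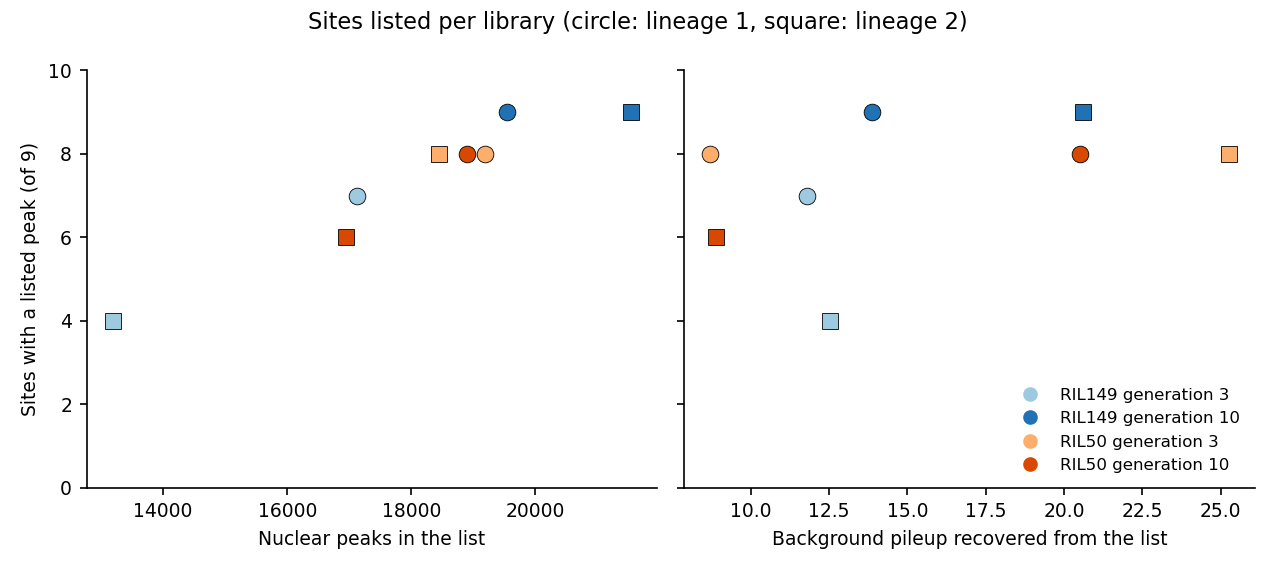
Number of the 9 sites with a listed peak (vertical axis) against the number of nuclear peaks in the list (left) and the background pileup recovered from it (right), 1 point per library, coloured by line and generation. The library with 13186 peaks lists 4 sites and those with 19542 and 21540 list 9, while libraries with 8 sites have background pileups from 8.71 to 25.3.

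The presence pattern of H1.2 was shared by 289 other genes (1.44% of the tested genes), that of HTA9 by 395 (1.96%) and that of HTA12 by 312 (1.55%). By covered bases over the 8 libraries, the genes with a symbol nearest to H1.2 were EMB2775, RGTA1 and SVL4, at distances of 6.08, 7.62 and 9.06 bases. The nearest to HTA9 were MSRB1, ULT2 and SK13 (50.7, 59.9 and 60.9 bases), and to HTA12 MEF22, emb1441 and GLX2-1 (43.0, 50.6 and 53.3 bases). The distance is Euclidean, and only genes with a symbol in the table and the same presence in each library were ranked. AT5G02570, which has no symbol there, was therefore left out, although its values are identical to those of HTA12.

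Other core histone genes were open in most libraries. A peak was listed in all 8 libraries at 6 of 7 other H2A genes, among them the H2A genes HTA2, HTA10 and HTA13, at 10 of 11 H2B genes, 6 of 9 H3 genes and 6 of 8 H4 genes. HTA4 was the H2A gene without one. The H2B list's 1 gene not open in all 8 is AT5G02570, whose covered bases are those of the HTA12 peak. The median over genes of the mean covered bases was 149.0 for the 9 genes, 523.6 for the other H2A genes, 445.1 for H2B, 319.9 for H3, 487.9 for H4 and 200.5 for all protein-coding genes. Over genes with a peak in at least 1 library it was 182.1 for the linker histone and H2A variant genes and 324.4 for all. These bases were not divided by window length, which differs between genes. HTA1, known for its part in transformation by Agrobacterium, covered 283 to 896 bases over the 8 libraries. Among the H3 genes, AT5G10390, an H3.1 gene by the table's synonyms, had the same presence in each library as HTA9: it was missing in both RIL149 libraries of generation 3. HTR12, the centromeric H3 gene, was listed in 7 libraries.

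Genes that place or remove the variants were open in every library at 8 of 15 (53.3%, beside 45.2% of all protein-coding genes) and in part of the libraries at 6. PIE1, the ATPase of SWR1, had a peak in 8 libraries, its partner ARP6 in 7, and the SWR1 subunit gene SWC2 in 5. SWC6, another subunit of that complex, had none. DDM1 was listed in 8 libraries with 273 to 478 covered bases, and MBD9, which helps to direct SWR1 to its sites, in 7. Others of this list had few: YAF9A and AT5G56950 had a peak in 1 library each and AT2G19480 in 2. The H2A.Z-binding chaperone genes NRP1 and NRP2 were listed in all 8. Of 6 other genes with an H1-like globular domain, HON4, HMGA and TRB2 were open in 8 libraries, HON5 in 7, and the telomere repeat binding genes TRB1 and TRB3 in none. No gene of these lists was open in all libraries of one line or generation and none of the other.

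**Figure D5:**
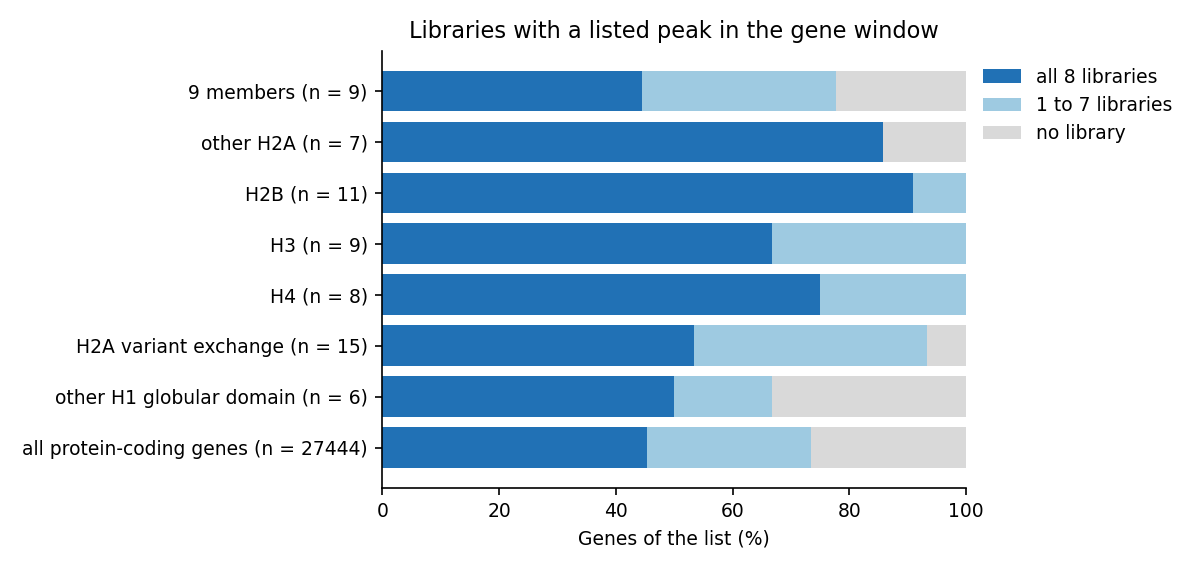
Share of the genes of each list (horizontal axis, %) with a listed peak in the window in all 8 libraries, in 1 to 7 and in none, with the number of genes beside each name. The bar of the 9 genes, 44.4% in all 8, is close to that of all protein-coding genes, 45.2%, and the core histone lists reach 66.7% to 90.9%.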

How the data were processed

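ATAC-seq was done on 8 shoot libraries. Tools in the submitters' processing notes, which give no roles or settings, are MACS2 2.2.9.1, Picard, Trimmomatic 0.39 and BWA 0.7.17, with the build TAIR10. These sources do not say how multi-mapped reads were treated, whether reads were shifted, or which parental allele each line carries at these genes. Peaks were deposited as 1 list per library, not pooled. Per the file headers and format, they hold the authors' fold (a ratio over local background), −log10 p and q values, an integer score and the summit offset, coded as another unit. List names carry generation numbers 1 apart from the labels, which were followed.

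Gene positions came from a RefSeq table (TAIR10.1) and are not printed, since the build name differs. In 9 of 9 bins of 5000000 bp gene ends matched peaks best at no offset. All 73 genes of 11 lists matched by identifier, and list membership of genes without a symbol rests on general knowledge. Genes and lists were chosen with earlier results of these data known. The rule named the 9 genes, 4 examples per other list and the 3 nearest patterns. AT5G10390, HTA4, HTR12, MBD9, DDM1, NRP1, NRP2, YAF9A, AT5G56950, AT2G19480, TRB2 and TRB3 were added after their values were seen.

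Presence and covered bases were tested for 20138 genes by exact permutation over 70 arrangements with Benjamini-Hochberg adjustment (Python 3.11.15, numpy 2.4.6, pandas 2.3.3, scipy 1.17.1), tested on simulated data. Pileup was solved from fold and p by the Poisson relation of MACS2 (99.8% to 100.0% of 1008 to 1060 peaks per library). Alternatives were windows of 500 and 2000 bp and the gene alone, −log10 q of at least 5, fold of at least 2, 13186 peaks per list, 50% of a peak in the window, each library left out, and blocks. The generations were paired by lineage label, although the sublineage differs in most lineages, so direct descent is not certain. Deviations from group means correlated at 0.0061 in RIL149 and -0.112 in RIL50. Planned sequence features were not run.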

Additional observations from a re-analysis of the deposited data

Results flagged for a closer look

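HTA12 covered bases were 0 in RIL50 at generation 10 lineage 2, far from the 160 to 193 of the other RIL50 libraries. Among the generation 3 libraries, HTA12 covered bases were 0 in RIL149 lineage 2 and 170 to 193 in the others. These 2 libraries have the shortest lists, with 16952 and 13186 peaks, and whether that bears on the missing peak was not tested. HTA9 covered 158 bases in RIL149 at generation 10 lineage 1, below the 217 to 226 of the other generation 10 libraries. In all, 46 groups of libraries were examined and 3 had an outlying library, beside a nominal rate of about 1 in 20. That rate assumes independent values, whereas the groups share libraries and hold values of 0, so it is a rough guide only.

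The change in HTA7 covered bases from generation 3 to generation 10 had opposite signs in the lines. It was 51 and 202 bases in the lineages of RIL149 and -46 and -141 in those of RIL50, and the mean change in RIL149 minus that in RIL50 was 220.0 bases. This difference was not tested, and the share of all genes with such opposite signs is not given here. The number of listed peaks also rose in both lineages of RIL149 and fell in both of RIL50. The part of list length in the HTA7 change was not tested.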

How the results depend on the processing

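The count of genes open in all 8 libraries was 4 in the report, 3 with a window of 500 bp or the gene alone (HTA8 was lost), and 6 with 2000 bp, where HTA6 and HTA12 reached 8 libraries. It was 4 under the other settings. The share of all protein-coding genes open in all 8 libraries, 45.2%, is for the 1000 bp window. No such share is given for the other windows, and a wider window can only take in more peaks at any gene. Presence separated neither lines nor generations at any of the 9 genes under any alternative run. Covered bases separated the lines at 1 gene, H1.3, when each list was cut to 13186 peaks (values in the report). Leaving out each library in turn gave 0 to 1 genes for the lines and 0 to 1 for the generations, as named in the report. Shares of all tested genes are not given for these removals, so the counts are not read as particular to the 9 genes. With the replicate block, 1 gene (H1.3) was higher in RIL50 in all 4 pairs and 2 (H1.3 and HTA9) were higher at generation 10 in all 4, where the smallest p is 0.125. Pairing the RIL50 lineages crosswise, an alternative chosen after seeing the data, gave 1 gene for covered bases and 0 for presence. No share of all tested genes is given for this pairing either. The pairs of the lines share only a number, and their deviations correlated at -0.0495 at generation 3 and 0.00317 at generation 10. With generation as a block, 1 gene (H1.3) was separated within both, where the smallest p is 0.0556. The causes were not tested. All 98 recomputed differences at single genes stayed within 1 SD (the larger of the groups') of the reported value, a wide band. Within it, HTA7 went from -37.5 to 7.75 bases for the lines with −log10 q of at least 5 and from 16.5 to -36.25 for the generations with equal lists. With the gene alone, H1.1 went from 6.75 to -0.25 for the lines and HTA12 from -18.0 to 2.5 for the generations. With equal lists H1.2 went from 75.75 to 0.0 in both comparisons. What each list could hold limits every absence, most at the lower end of HTA7, where 4.91% and 2.4% of the lists without the peak had a fold under 2.32.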

Other observations

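At the lower end of HTA7 the peak started at chr5:9792416 in 5 of the 6 libraries that list it, across both lines and generations. Of 15095 merged regions with peaks in at least 6 libraries, 2.75% had 5 or more libraries with the same start and 5.3% had 5 or more with the same start or the same end. At HTA12 the peak started at chr5:577237 in 3 of 6 libraries, and 3 or more shared a start in 20.3% of the regions. The end at 577366 was shared by RIL149 at generation 10 lineage 1 and RIL50 at generation 10 lineage 1. An end shared by 2 or more libraries was common, at 64.8% of the regions. At H1.1, H1.3, HTA8 and the upper end of HTA7, no edge was shared by more than 2 libraries, and no edge was shared at H1.2 or HTA9.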
